A study of Mus musculus with 3 samples.

Results

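Of the 23718 rows of the lncRNA table of apoptotic bodies (ABs), 3116 carried an Ensembl transcript identifier beginning with ENSMUST. These 3116 rows are described here, and 3102 of them belong to 2681 genes of the GENCODE M21 annotation. The other rows came from the NONCODE collection (20341) or from transcripts assembled for the study (261). The 3 libraries, 1 per group, were named BMM-ABs, pOC-ABs, mOC-ABs for the ABs shed by macrophages grown from bone marrow, by preosteoclasts and by mature osteoclasts. The marrow came from C57BL/6 mice aged 11 weeks, and BMMs were grown in M-CSF at 50 ng/ml for 72 h without RANKL. The other cells were made from BMMs with RANKL at 100 ng/ml and M-CSF at 30 ng/ml, pOCs within 24 h and mOCs within 72 h or more. The deposited columns are named 0 h, 24 h and 72 h and were assigned to the titled cells through these times. The text of the study differs, with a shorter culture of BMMs in M-CSF and a later time for mOCs. For its stained cultures it also gives a higher dose of M-CSF with RANKL. The sample labels give alendronate at 500 μM for 12 h as the inducer of apoptosis in all groups, whereas the methods of the study name staurosporine. The sample titles name the cells, and the libraries were taken as AB libraries from the description of the series. With 1 library per group no difference could be set against a spread between replicates, and no test across genes was made. Ratios are therefore given with exact binomial (Clopper-Pearson) intervals at 95%, which cover counting error only. G1 compares pOC-ABs with BMM-ABs, G2 mOC-ABs with BMM-ABs and G3 mOC-ABs with pOC-ABs. Where 3 read counts or shares follow each other, they stand in the order BMM-ABs, pOC-ABs, mOC-ABs, and 3 log2 ratios in the order G1, G2, G3. In such bulk libraries, fewer ABs of a kind and less of an RNA per AB cannot be told apart.

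Long noncoding RNAs (lncRNAs) are transcripts longer than small RNAs that encode no known protein. Many are spliced and polyadenylated like mRNAs, some stay in the nucleus and build nuclear bodies, and others host small nucleolar RNAs (snoRNAs) in their introns. Ensembl identifiers also cover loci that are not lncRNAs in this sense, such as pseudogenes and the RNAs of ribonucleoprotein machines. RNA of the signal recognition particle (7SL) guides secretory proteins to the endoplasmic reticulum, RNase P RNA (Rpph1) matures tRNAs, RNase MRP RNA (Rmrp) takes part in ribosomal RNA processing and 7SK (Rn7sk) holds back the elongation factor P-TEFb. Small Cajal body RNAs (scaRNAs) guide the modification of spliceosomal RNAs, and snoRNAs guide that of ribosomal RNAs. None of these structured RNAs is known for a stable poly(A) tail, and the methods of the study describe purification of the RNA on poly-T beads.

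Checked against GENCODE M21, the label of lncRNA held for only part of the 3116 rows. Of these rows, 1652 were annotated lncRNAs, made up of 715 lincRNA, 553 antisense, 181 processed transcript, 135 retained intron, 60 bidirectional promoter, 7 sense overlapping and 1 macro lncRNA. A further 913 were TEC, a provisional class for loci that still await experimental testing and in which all but 4 rows have 1 exon. There were also 337 pseudogene rows, 143 sense intronic rows and 57 rows of small structured RNAs between 203 and 414 bases long. The remaining 14 rows were not in the annotation. Over all rows the median length was 1351 bases.

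Structured RNAs with many reads and large differences between the libraries are shown first, 5′ to 3′, as the first 120 bases of the transcripts in GENCODE M21 (GRCm38). Rmrp lies at chr4:43492788-43493058, Rpph1 at chr14:50807449-50807767 and Scarna13 at chr12:105031075-105031349, all on the minus strand.
Rmrp: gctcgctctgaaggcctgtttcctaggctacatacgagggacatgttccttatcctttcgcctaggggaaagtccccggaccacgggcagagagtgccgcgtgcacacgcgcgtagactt
Rpph1: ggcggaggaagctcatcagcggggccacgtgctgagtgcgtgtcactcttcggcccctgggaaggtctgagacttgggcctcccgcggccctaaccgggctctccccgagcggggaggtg
Scarna13: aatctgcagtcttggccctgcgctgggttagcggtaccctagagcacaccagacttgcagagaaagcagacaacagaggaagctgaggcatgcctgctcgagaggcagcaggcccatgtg

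Rn7sk, at chr9:78175303-78175633 on the minus strand, is shown with Gm24447, at chr15:93234363-93234700 on the plus strand, because Gm24447 is annotated only as misc_RNA and, with 67401 reads in BMM-ABs, was among the rows with the most reads. The 2 transcripts were identical over their first 241 bases and in 290 of 347 alignment columns (83.6%). Their last 120 bases are printed with the bases that were not identical in capitals.
Rn7sk: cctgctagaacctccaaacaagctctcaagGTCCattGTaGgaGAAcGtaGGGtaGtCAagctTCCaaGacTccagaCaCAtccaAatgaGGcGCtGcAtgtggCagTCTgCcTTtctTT
Gm24447: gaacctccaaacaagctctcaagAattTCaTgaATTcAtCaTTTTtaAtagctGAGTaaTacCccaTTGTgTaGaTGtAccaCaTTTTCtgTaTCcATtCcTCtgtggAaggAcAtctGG

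For the lncRNAs the last 60 bases of a transcript are shown, because the hexamers AATAAA and ATTAAA, which precede most poly(A) sites, are found there when a transcript ends at such a site. Capitals mark the hexamers, read on the transcript strand. Malat1 is given by its transcript of 6983 bases and the others by the transcript with the most reads. In GRCm38 these transcripts lie on the minus strand at chr19:5824708-5845478 (Neat1), chr19:5795690-5802672 (Malat1), chr2:156388065-156392979 (2900097C17Rik), chr4:132351934-132352933 (Snhg3), chr11:97644184-97660367 (Gm11613), chr11:79607079-79623163 (Rab11fip4os1) and chr8:120204434-120228230 (A330074K22Rik), and on the plus strand at chr9:59672814-59676700 (Gm49759). Gm49759 is a TEC locus inside Pkm, chosen after its values were seen as the TEC row with the most reads beside a single host gene.
Neat1: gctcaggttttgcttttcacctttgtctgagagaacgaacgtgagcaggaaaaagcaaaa
Malat1: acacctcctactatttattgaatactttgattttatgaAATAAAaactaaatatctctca
2900097C17Rik: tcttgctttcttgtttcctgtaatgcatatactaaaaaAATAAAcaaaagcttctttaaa
Snhg3: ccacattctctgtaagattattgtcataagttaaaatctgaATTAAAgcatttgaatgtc
Gm11613: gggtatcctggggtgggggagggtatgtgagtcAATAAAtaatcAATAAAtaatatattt
Rab11fip4os1: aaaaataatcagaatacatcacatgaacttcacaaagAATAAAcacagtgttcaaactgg
A330074K22Rik: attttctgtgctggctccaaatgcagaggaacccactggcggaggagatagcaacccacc
Gm49759: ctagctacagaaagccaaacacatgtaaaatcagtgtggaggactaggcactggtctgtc

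Over all 3102 rows in the annotation, 37.6% had either hexamer in their last 50 bases. The share was 51.3% in lincRNA, 48.8% in antisense, 49.6% in retained intron and 61.7% in bidirectional promoter rows. It was lower in TEC (31.3%) and sense intronic rows (25.2%), and 3.86% in pseudogenes and 3.51% in small structured RNAs. Among rows with 20 or more reads the gap between lincRNA (55.3%) and TEC (26.8%) was wider. The full-length Neat1 transcript had neither hexamer, and the 6983-base Malat1 transcript had 1 AATAAA. Both RNAs are known for long forms whose ends are cut by RNase P rather than made by polyadenylation, and a missing hexamer says only that these letters are not in this window.

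Reads of the Ensembl rows numbered 2418901, 3557670 and 2943285. These were 19%, 30.0% and 25.5% of all mRNA and lncRNA reads, which totalled 12734764, 11865332 and 11556957, and the binomial intervals of the shares were at most 0.0521 percentage points wide. Most of these reads lay on few rows. The 57 small structured RNAs held 16.7%, 28.2% and 23.9% of all reads, or 87.7%, 94.0% and 93.8% of the reads of the Ensembl rows. All other Ensembl rows together held 2.33%, 1.8% and 1.58%. Thus the rise of the Ensembl share from BMM-ABs to pOC-ABs lay in the structured RNAs. The share of the remaining rows was lower in both osteoclast-lineage libraries, but most of it was the row of Gm42418, a ribosomal RNA locus described below. Gm42418 held 1.62%, 1.1% and 0.915% of all reads, so that the lower share lay mostly in this row. The median row had 15 reads over the 3 libraries, 1319 rows (42.3%) had 20 or more and 1797 had fewer. A read was seen for 2792, 2718 and 2481 rows, and for 2099 rows in all 3 libraries. A row without a read can hold up to 3 reads' worth of RNA, which is 2.36e-05%, 2.53e-05% and 2.6e-05% of the reads in these libraries.

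Summed marker genes in the mRNA table moved with the labels, but single ones did not all do so. The 10 osteoclast genes summed to 246, 362 and 1250 CPM (reads scaled to the library total), with Calcr at 0 in all 3, and 6 macrophage genes to 1930, 905 and 934 CPM. Against the labels, the osteoclast integrin gene Itgb3 had 6, 3 and 0 reads. Ctsk, which encodes cathepsin K, stood at 14.1 and 14.4 CPM before 86.6 in mOC-ABs. The macrophage genes Csf1r and Cd68 rose from 222 to 338 and from 404 to 437 CPM between pOC-ABs and mOC-ABs. Markers of T cells, neutrophils and erythroid cells had no read, those of B cells and stromal cells at most 5 reads in a library, and 3 endothelial genes 1.81, 1.01 and 4.07 CPM. The part of other cells in the results on lncRNAs was not tested beyond these levels.

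**Figure D1:**
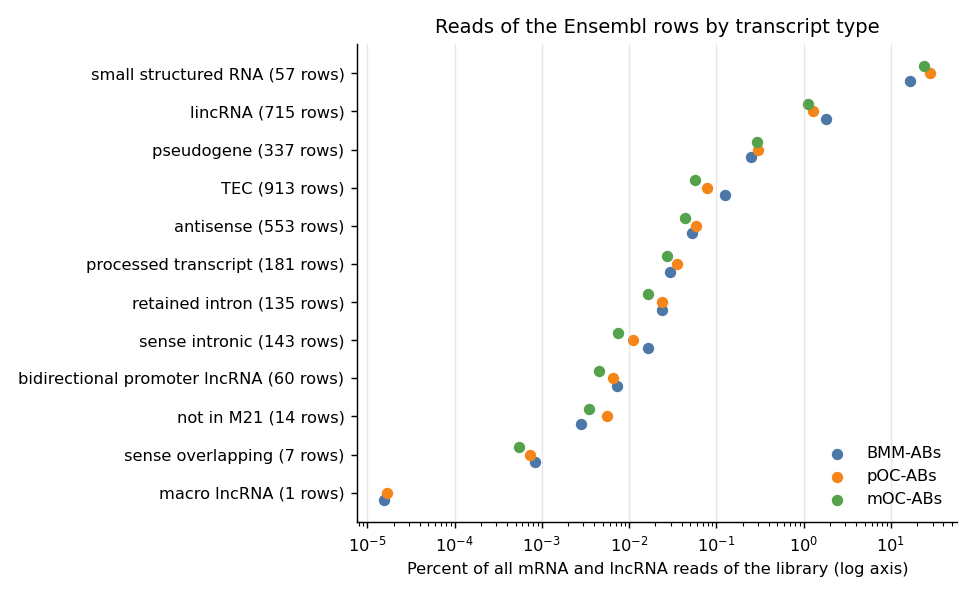
Percent of all mRNA and lncRNA reads of a library (log axis) held by the Ensembl rows of each GENCODE M21 transcript type, with 1 point per library and the number of rows in brackets. Small structured RNAs stand at 16.7%, 28.2% and 23.9%, TEC rows fall from 0.125% to 0.0787% and 0.0562%, and the macro lncRNA row, at 0 in mOC-ABs, has no point there.

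Signal recognition particle RNA took the largest number of reads. Rn7s1 had 1201201, 1759372 and 1507297 reads, and Rn7s2 had 400288, 650127 and 517994. The 2 transcripts are identical over 300 of 300 bases, so that reads cannot be told apart between these genes by sequence. Their sum is therefore the safer value, and it made up 12.6%, 20.3% and 17.5% of all reads. The 7SL share was thus highest in pOC-ABs and lowest in BMM-ABs. Although the sequences are the same, Rn7s1 had 3.0, 2.71 and 2.91 times the reads of Rn7s2, and how reads with several matches were counted is not given in the sources used here. Rn7s1 was 1.57-fold (1.57 to 1.58) higher in G1 and 1.38-fold (1.38 to 1.39) higher in G2, which did not pass the 2-fold limit. The log2 ratio of Rn7s2 in G1 was 0.80, and 1.05, past 2-fold, with median-of-ratios factors.

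RNase P RNA and RNase MRP RNA, which share most of their proteins, moved differently between the osteoclast stages. Rpph1 had 134034, 415180 and 227705 reads, and Rmrp had 143805, 314068 and 308578. Both were higher in the osteoclast-lineage ABs, Rpph1 with a peak in pOC-ABs and Rmrp with nearly equal levels in pOC-ABs and mOC-ABs. In G1, Rpph1 was 3.32-fold (3.30 to 3.35) and Rmrp 2.34-fold (2.33 to 2.36) higher. In G2 the ratios were 1.87 (1.86 to 1.88) for Rpph1 and 2.36 (2.35 to 2.38) for Rmrp, and in G3 they were 0.563 (0.560 to 0.566) and 1.01 (1.0 to 1.01). With median-of-ratios factors the log2 ratio of Rpph1 in G2 went from 0.90 to 1.15, past 2-fold. On the deposited FPKM scale, which accounts for length, Rpph1 had 32971, 109623 and 61738 and Rmrp 41640, 97614 and 98485. The order of the 2 RNAs per length therefore turned from Rmrp above Rpph1 in BMM-ABs to Rpph1 above Rmrp in pOC-ABs and back in mOC-ABs.

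Rn7sk and the similar Gm24447 went the other way. Rn7sk had 157075, 109208 and 120256 reads, and Gm24447 had 67401, 51974 and 50397. Both were highest in BMM-ABs. The ratio of Rn7sk was 0.746 (0.740 to 0.752) in G1 and 0.844 (0.837 to 0.850) in G2, and that of Gm24447 0.828 and 0.824. With median-of-ratios scaling the log2 ratios of Rn7sk came to -0.17 in G1 and 0.00 in G2, and those of Gm24447 to -0.03 and -0.04, so that both deficits in G2 depended on the scaling. Thus within the list of RNA polymerase III products, in which 5 of 9 RNAs had a row with 20 or more reads, 2 were past 2-fold higher in G1, 1 in G2 and none was past 2-fold lower in any comparison. Over all 1226 Ensembl lncRNA genes with 20 or more reads, G1 had 15.6% higher and 26.2% lower, G2 had 5.46% and 42.7%, while in G3 the shares were 8.81% and 30.6%.

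Most scaRNAs and snoRNAs were higher in pOC-ABs. Of the 16 with 20 or more reads, 11 were past 2-fold higher and 1 lower in G1, 4 higher and none lower in G2, and 2 higher and 5 lower in G3. Over all 1319 Ensembl rows with 20 or more reads, G1 had 16.9% higher and 26.8% lower, G2 had 6.90% and 42.2%, while in G3 the shares were 10% and 30.2%. The median log2 ratios of the 16 were 1.46, 0.66 and -0.65 in G1, G2 and G3, beside -0.28, -0.75 and -0.45 over these 1319 rows. Scarna13, a scaRNA whose host gene is Snhg10, had 4933, 17198 and 10516 reads. It was 3.74-fold (3.62 to 3.86) higher in G1 and 2.35-fold (2.27 to 2.43) in G2. Scarna10, encoded within Ncapd2, had 5168, 12693 and 6076 reads, with a ratio of 2.64 (2.55 to 2.72) in G1 and 1.30 in G2. Gm25395, within the autophagy gene Atg16l1, had 1801, 5063 and 2574 reads and was 3.02-fold (2.86 to 3.19) higher in G1. In all 3 the pOC-AB library was the highest and the mOC-AB library lay between the others.

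U3 snoRNA, which is needed for the early cleavage of pre-ribosomal RNA, had low counts and was also highest in pOC-ABs. Rnu3b3 had 44, 184 and 47 reads, and the larger row of Rnu3b1 had 53, 156 and 47. Their ratios were 4.49 (low bound 3.22) and 3.16 (low bound 2.30) in G1, and 1.18 and 0.977 in G2, where both intervals included no change. Snora73b, a snoRNA of the U17 family that lies within Snhg3 and Rcc1, had 1210, 3724 and 2541 reads. Its neighbour Snora73a had 81, 215 and 147, and the ratios of the 2 rows were 3.30 and 2.85 in G1 and 2.31 and 2.0 in G2. Not every structured RNA peaked in pOC-ABs. Scarna2, which has its own promoter, had 2781, 2046 and 3262 reads, and Gm23547, a snoRNA row within Phb2, had 495, 160 and 850, with a ratio of 0.347 in G1 and 5.45 in G3.

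Among these, 13 rows lie on the same strand within a gene that had 20 or more reads of its own. That gene is called the host by position alone, and whether the small RNA is made from its transcript was not tested. The median log2 ratio over G1, G2 and G3 of the 13 small RNAs was 1.51, 0.65 and -0.72, while that of their host genes was -0.19, 0.11 and 0.11. The small RNA stood above its host in 12 of the 13 rows in G1, 11 in G2 and 2 in G3. These rows are not separate cases, because some share a host. Tex14, with only 11, 16 and 11 reads, contains Rnu3b3 and both Rnu3b1 rows. Atg16l1 contains Gm25395 and Scarna6, and Rcc1 and Snhg3 contain Snora73b and Snora73a. Ncapd2, for example, had 2995, 1652 and 1990 reads, a log2 ratio of -0.76 in G1, opposite in sign to that of Scarna10. At Snhg3 the reads of host and snoRNA overlap in sequence, as the row with the most reads had 80.4% of its 31-base words in other transcripts.

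**Figure D2:**
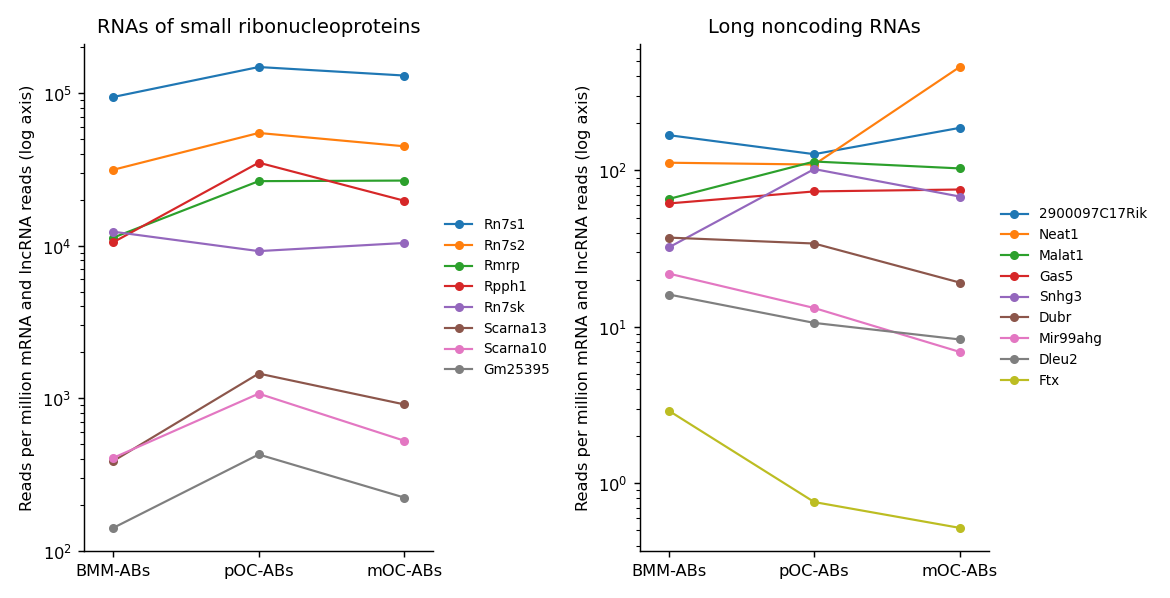
CPM, scaled to all mRNA and lncRNA reads (log axis), of 8 RNAs of small ribonucleoproteins and 9 long noncoding RNAs in the 3 AB libraries, each summed over its Ensembl rows. Rpph1, Scarna13, Scarna10 and Gm25395 peak in pOC-ABs, Rn7sk is highest in BMM-ABs, and Neat1 rises from 112 and 109 to 458 only in mOC-ABs.

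At the level of single rows, decreases outnumbered increases when reads were scaled to the library totals. A row was called when the ratio of its reads divided by the library totals was above 2 or below 0.5, among the 1319 rows with 20 or more reads. In G1, 223 rows (16.9%) were higher and 354 (26.8%) lower, beside 15.9% and 31.7% of all 9154 rows of the lncRNA table that had 20 or more reads. In G2, 91 rows (6.90%) were higher and 557 (42.2%) lower, beside 6.52% and 47.3%. In G3, 132 (10%) were higher and 398 (30.2%) lower, beside 11.7% and 33.6%. The shares of the Ensembl rows were thus close to those of the whole lncRNA table, with somewhat fewer decreases. In G1 the balance depended on the scaling, as 49.7% of the calls were increases with median-of-ratios factors and 53.2% with TMM factors, against 38.6% here. In G2, increases made up 14.0% of the calls, and 22.7% and 25.4% with these factors. Both factors raise every log2 ratio of G1 and G2, by 0.25 and 0.24 or by 0.31 and 0.30, and leave G3 nearly as it is.

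Summed per gene, 1226 of the 2681 genes had 20 or more reads. In G1, 191 genes (15.6%) were higher and 321 (26.2%) lower, where 4.55% and 10.9% of all 13890 genes of the Ensembl lncRNA rows and the mRNA table were. In G2, 67 genes (5.46%) were higher and 523 (42.7%) lower, beside 3.66% and 13.4%. In G3, 108 (8.81%) were higher and 375 (30.6%) lower, beside 4.51% and 7.94%. The genes of the Ensembl lncRNA rows thus passed 2-fold more often than genes at large, but they also had fewer reads, and the share that counting error adds was not separated. With the whole interval required to lie past 2-fold, 50 genes were higher and 52 lower in G1. The counts were 18 and 109 for G2, and 14 and 95 for G3.

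The transcript types differed in their ratios. TEC rows were lower in both osteoclast-lineage libraries, with median log2 ratios of -0.81 in G1, -1.25 in G2 and -0.60 in G3 over 444 rows. In G2, 281 of these 444 were past 2-fold lower and 4 higher. Sense intronic rows were alike, at -1.0, -1.20 and -0.35 over 63 rows, of which 39 were lower and 1 higher in G2. Pseudogenes stayed near their level with library totals, at 0.10, 0.17 and 0.04 over 131 rows. Their medians in G1 and G2 were 0.35 and 0.41 with median-of-ratios factors, and 0.42 and 0.47 with TMM factors. LincRNA rows had medians of -0.10, -0.49 and -0.35 over 255 rows, and antisense rows of 0.19, -0.40 and -0.59 over 222. The 26 small structured RNAs had medians of 1.04, 0.49 and -0.24. The sign of the lincRNA median in G1 turned to 0.15 with median-of-ratios factors and 0.22 with TMM factors, while the medians of TEC (-1.0 and -0.94 in G2), sense intronic rows (-0.96 and -0.90) and small structured RNAs (0.73 and 0.79) kept theirs.

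**Figure D3:**
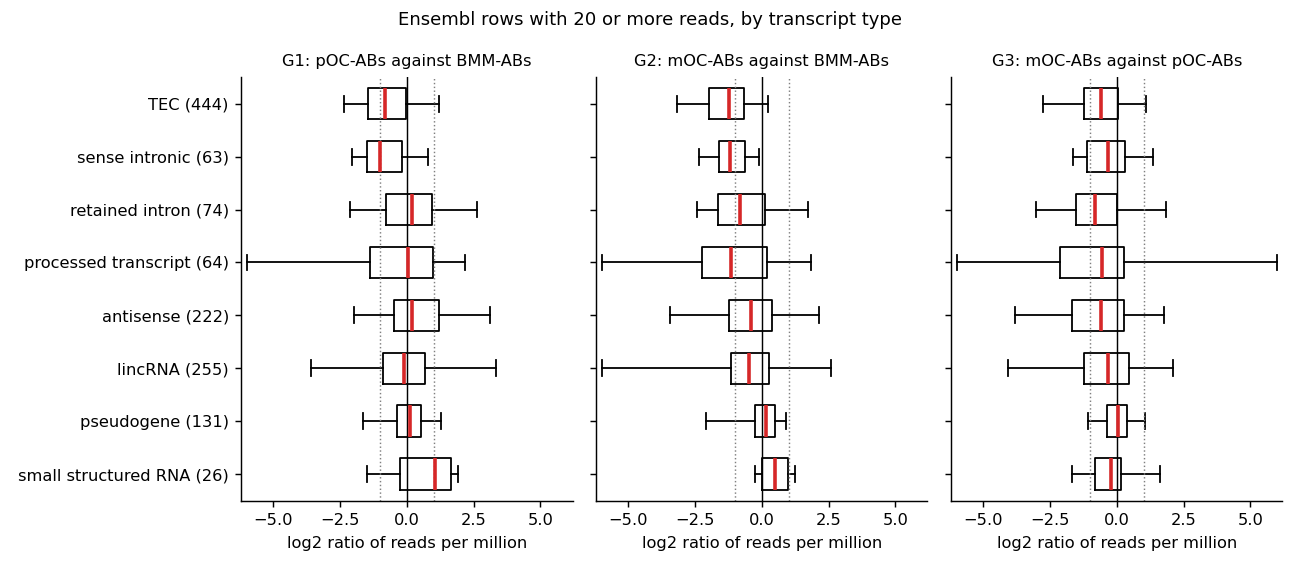
Log2 ratios of CPM in G1, G2 and G3 for Ensembl rows with 20 or more reads, by transcript type, with the number of rows in brackets. Boxes span the quartiles, red lines are medians, whiskers reach the 5th and 95th percentiles, ratios past 6 or against 0 reads are drawn at 6 or -6, and dotted lines mark 2-fold. In G2 the TEC median lies at -1.25 and that of small structured RNAs at 0.49.

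Number of exons and position relative to protein-coding genes went with these differences. Among annotated lncRNA, TEC and sense intronic rows, without the ribosomal RNA locus of Gm42418 and Gm26917, the 719 rows of 1 exon had a median log2 ratio of -1.08 in G2 and the 430 rows of 2 or more exons one of -0.47. Of these rows, 444 of the 719 with 1 exon were TEC. In G1 and G2 the decrease was largest for 1-exon rows on the same strand as an overlapping protein-coding gene, with medians of -0.90, -1.35 and -0.55 in G1, G2 and G3 over 385 rows. Of these 385, 255 were past 2-fold lower and 3 higher in G2. In 1-exon rows on the opposite strand the medians were 0.18, -0.68 and -0.90 over 149 rows, and in those overlapping no protein-coding gene -0.03, -0.86 and -0.67 over 185, both lower than the same-strand rows in G3. Rows of 2 or more exons away from protein-coding genes had medians of -0.09, -0.38 and -0.28 over 224. The difference between 1 exon and more was seen at each depth in G2, with medians of -1.18 and -0.67 at 20 to 50 reads, -1.04 and -0.47 at 51 to 200, and -0.96 and -0.01 above 200. It was not seen in all subsets. In the longest class of rows, with median lengths of 4855 and 4897 bases, both medians in G2 were -1.15, over 82 and 27 rows. Within processed transcripts they were -1.12 and -1.14, over 8 and 56 rows, and within sense intronic rows -1.22 and -1.15, over 50 and 13. Antisense rows had -0.51 and -0.18, and lincRNA rows -0.62 and -0.38.

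For 367 of the 1-exon same-strand rows with exactly 1 host gene, in 273 genes, the row could be set beside the host in the mRNA table. The rows had median log2 ratios of -0.92, -1.35 and -0.55 in G1, G2 and G3, and the hosts -0.34, -0.22 and 0.06. The row lay below its host in 268 (73.0%), 334 (91.0%) and 271 (73.8%) of the 367. Gm49759, within the glycolytic gene Pkm, had 1089, 388 and 452 reads, a log2 ratio of -1.13 in G2, while Pkm had 53741, 38702 and 46396 (-0.07). A130071D04Rik, within the leukocyte gene Ptprc, had 112, 46 and 22 reads (-2.21), and Ptprc 1732, 792 and 671 (-1.23). In both, BMM-ABs were the highest library for row and host, and the row fell further. These loci were chosen after their values were seen. Transcripts of the mRNA table annotated as retained introns, which also hold intronic sequence, summed to log2 ratios of -0.51, -0.54 and -0.03, beside -0.26, -0.11 and 0.15 for protein-coding transcripts. Whether unspliced host RNA gives reads to these rows was not tested.

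**Figure D4:**
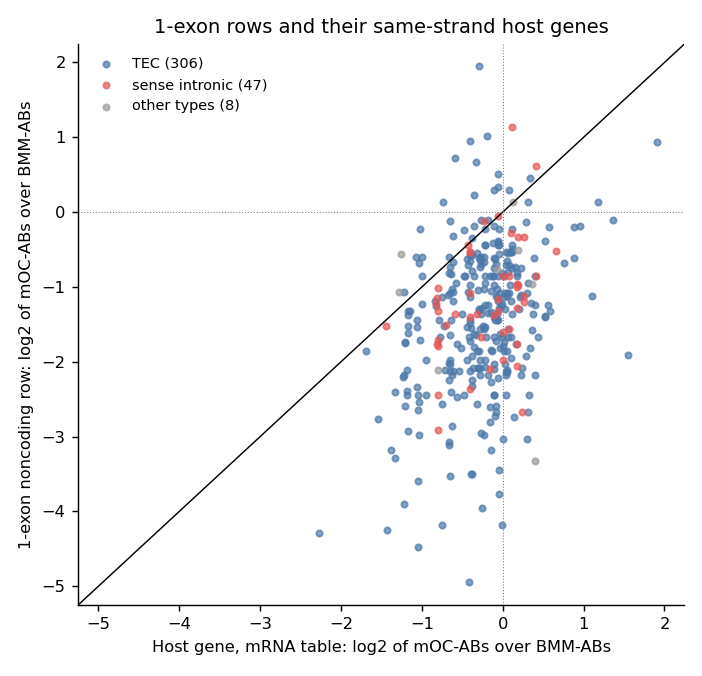
Log2 ratio of mOC-ABs over BMM-ABs (G2) of 1-exon noncoding rows against that of the single protein-coding gene they overlap on the same strand, 1 point per row, with the line of equal ratios. Drawn are the 361 of 367 pairs with reads on both sides, and 91.0% of the 367 rows have a lower ratio than their host.

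A ribosomal RNA locus accounted for most lincRNA reads. Gm42418, at chr17:39846958-39848788, is annotated as lincRNA, and RefSeq lists its symbol as a synonym of the 18S ribosomal RNA gene Rn18s-rs5. It had 205712, 130601 and 105740 reads, with ratios of 0.681 (0.677 to 0.686) in G1 and 0.566 (0.562 to 0.571) in G2. The level of this row fell in both steps. The 2 rows of Gm26917, from chr17:39843013 on, lie beside it, the larger with 933, 378 and 402 reads. Without Gm42418 and Gm26917 the lincRNA class held 24805, 20848 and 23753 reads instead of 231819, 151922 and 130053, so that its summed log2 ratio in G2 went from -0.69 to 0.08. Overlapping NONCODE and assembled rows, here and below, are all those that touch the span of a gene, whatever their strand or exons. Sums with such rows describe the locus and can include other transcripts. Overlapping NONCODE rows at the locus of Gm42418 held 668859, 508943 and 548314 more reads. With them the locus had 874571, 639544 and 654054 reads. Its ratios were then 0.785 in G1, 0.824 in G2 and 1.05 in G3, so that it no longer fell from pOC-ABs to mOC-ABs.

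Pseudogene rows held 0.249%, 0.297% and 0.295% of the reads. Rps27a-ps2, a processed copy of a ribosomal protein gene, led them with 3740, 4859 and 4376 reads, a ratio of 1.39 (1.34 to 1.46) in G1. All of its 31-base words also occur in other annotated transcripts, so that its reads cannot be assigned to it by such words alone. Of the 131 pseudogene rows with 20 or more reads, 90 (68.7%) shared at least 50% of these words, against 9 (2.03%) of 444 TEC rows and 20 (7.84%) of 255 lincRNA rows.

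Among the nuclear lncRNAs, Neat1, the scaffold of paraspeckles, was far higher in mOC-ABs. It had 1432, 1294 and 5290 reads. BMM-ABs and pOC-ABs stood together and mOC-ABs apart, with ratios of 0.970 (0.899 to 1.05) in G1, 4.07 (3.84 to 4.32) in G2 and 4.20 (3.95 to 4.46) in G3. Most reads were listed for the row of the long form, which paraspeckles require, at chr19:5824708-5845478. This 20771-base row held 1397, 1271 and 5238 reads, that is 97.6%, 98.2% and 99.0% of the gene, while the 3004-base row had 30, 20 and 49. The short row lies within the long one, so that these shares rest on how shared reads were divided, which is not given in the sources used here. Overlapping NONCODE and assembled rows added only 25, 51 and 23 reads.

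Malat1, a lncRNA of nuclear speckles encoded next to Neat1, changed less in sum but differed between its rows. The gene had 837, 1358 and 1190 reads, with ratios of 1.74 (1.60 to 1.90) in G1 and 1.57 (1.43 to 1.71) in G2. With median-of-ratios factors the log2 ratio in G1 went from 0.80 to 1.05, past 2-fold. Its 6983-base transcript had 328, 31 and 418 reads. A 2-exon row of 485 bases from the 5′ end of the gene, at chr19:5801916-5802671, had 488, 1301 and 758. The share of this short row was 58.3%, 95.8% and 63.7%, and pOC-ABs stood apart in both rows and in opposite directions. The circRNA table lists 4 circRNAs at Malat1, with 0, 28 and 17 junction reads. These sums and shares cover the Ensembl rows only, and 8 overlapping NONCODE or assembled rows held 760, 1609 and 669 more reads. Adding them moved the ratio in G1 from 1.74 to 1.99 and that in G2 from 1.57 to 1.28. The ratio in G3 fell from 0.9 to 0.643. Each of these lay outside the interval from the Ensembl rows alone. The Ensembl rows also overlap each other, and how the authors divided reads between rows is not given in the sources used here.

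Such shifts between the rows of a gene were examined in the 23 genes with at least 100 reads in each library and at least 2 rows of 20 reads. The largest was in 4933404O12Rik, a lincRNA gene, where the row ENSMUST00000181045 held 37 of 183, 246 of 286 and 236 of 310 reads (20.2%, 86.0% and 76.1%). In Tmem250-ps the spliced row rose from 36.6% to 95.8% and 95.7%. Here the osteoclast-lineage libraries stood together. In Snhg8, a host of a snoRNA, the retained-intron row held 33.9%, 77.4% and 33.3%, and in 2010016I18Rik the row ENSMUST00000164330 held 31.9%, 1.81% and 23.8%, so that in both pOC-ABs stood apart. Zfas1, Lncpint and AI662270 shifted by 25.8, 27.6 and 30.6 percentage points. These shares cover the Ensembl rows only and rest on how reads were divided between overlapping rows. NONCODE and assembled rows held 550, 217 and 402 reads at Tmem250-ps, 194, 37 and 30 at 4933404O12Rik, and 2858, 1045 and 1658 at Lncpint. They held 98, 169 and 87 at Snhg8 and 150, 170 and 117 at AI662270, beside 4, 1 and 1 at 2010016I18Rik and no reads at Zfas1. Over the 67 genes with at least 2 rows of 20 reads, rows passed 2-fold in opposite directions in 15 genes in G1, 12 in G2 and 10 in G3, so that a single row did not always stand for its gene.

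The snoRNA host genes, whose exons are left as lncRNAs after the snoRNAs are cut out, had members on both sides of no change. Of 22 listed, 15 had an Ensembl row and 14 had 20 or more reads. In G1, 2 of the 14 were higher and 1 lower, in G2 1 and 2, and in G3 none and 4, with median log2 ratios of 0.16, -0.24 and -0.27. The shares of all Ensembl lncRNA genes, given above, were 15.6% higher and 26.2% lower for G1. For G2 they were 5.46% and 42.7% and for G3 8.81% and 30.6%, and nothing particular to the hosts is read from their counts. Snhg3 had 410, 1207 and 787 reads. It was 3.16-fold (2.82 to 3.54) higher in G1 and 2.12-fold (1.87 to 2.39) in G2, close to the 3.30 and 2.31 of its snoRNA Snora73b, from which its reads are not fully separable. Gas5, a growth-arrest transcript with 24 rows, had 783, 871 and 872 reads, with ratios of 1.19 (1.08 to 1.32) in G1 and 1.23 (1.11 to 1.35) in G2. Snhg17 was highest in BMM-ABs, with 157, 37 and 49 reads and a ratio of 0.253 (0.172 to 0.364) in G1. Snhg20 had 141, 213 and 61 reads and a ratio of 0.294 (0.217 to 0.393) in G3, and its 1-exon row went from 13.5% and 18.3% of the gene to 83.6% in mOC-ABs. Overlapping NONCODE and assembled rows changed some of these values, and with them the log2 ratio of Snhg17 in G2 went from -1.54 to -0.90 and that of Snhg20 from -1.07 to 0.21. The ratio of Snhg20 in G3 became 0.733 with these rows, no longer past 2-fold, as the locus then had 145, 213 and 152 reads. Snhg1, Snhg12, Zfas1 and Snhg6 had intervals that included no change in all 3 comparisons, although the ratio of Snhg6 in G1 went from 1.11 to 1.67 with the overlapping rows.

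Of 10 listed lncRNAs of growth control, 7 had 20 or more reads, with none higher and 1 lower in G1, beside 15.6% and 26.2% of all Ensembl lncRNA genes. In G2, 1 was higher (Tug1) and 1 lower (Lockd), beside 5.46% and 42.7%. In G3, 2 were higher (Tug1 and Pvt1), beside 8.81%. The gene 2900097C17Rik, the mouse counterpart of NORAD, which binds Pumilio proteins and guards chromosome number, had 2138, 1507 and 2162 reads. It dipped in pOC-ABs, by a ratio of 0.757 (0.708 to 0.808), and returned, with 1.11 (1.05 to 1.18) in G2. Trp53cor1, known as lincRNA-p21, had 120, 99 and 81 reads, with intervals that included no change in G1 and G3. Lockd, expressed beside the cell cycle inhibitor gene Cdkn1b, fell from 92 to 51 and 26 reads, a ratio of 0.311 (0.193 to 0.486) in G2. Pvt1, next to Myc, had 40, 13 and 27 reads, lowest in pOC-ABs, with a ratio of 0.349 (0.171 to 0.666) in G1. Its circRNA had 64, 34 and 53 junction reads in the circRNA table, the most of any host among the Ensembl lncRNA genes there, and was lowest in pOC-ABs as well. With overlapping NONCODE and assembled rows added, the locus of Pvt1 had 455, 282 and 181 reads, so that mOC-ABs were lowest. Its ratio in G1 was then 0.665, no longer past 2-fold, that in G2 went from 0.744 to 0.438, and the log2 ratio in G3 turned from 1.09 to -0.60.

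Tug1, a chromatin-associated lncRNA, shows how the annotation divides a gene. Its Ensembl lncRNA rows had 2, 3 and 22 reads, while rows of the same gene in the mRNA table had 69, 33 and 37. The ratio of the lncRNA rows was 12.1 (2.98 to 106) in G2, and the log2 ratio of 3.60 became -0.13 with the rows of the mRNA table and -1.54 with the overlapping NONCODE and assembled rows. Firre, an X-linked lncRNA of nuclear organisation, was alike, with 43, 61 and 100 reads in the lncRNA rows against 397, 9 and 57 in the mRNA table. Its log2 ratio in G2 was 1.36 (0.83 to 1.91) from the former and -1.35 with both, and -0.30 with the overlapping NONCODE and assembled rows added to the former. Of the 2681 genes, 108 also had reads in the mRNA table.

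Of 4 X-linked lncRNAs, Ftx and Jpx lie at the X inactivation centre, while Firre and 4933407K13Rik lie elsewhere on the chromosome. Ftx and 4933407K13Rik were past 2-fold lower in G1 and G2, and Firre was higher in G2, beside 26.2% and 42.7% lower and 5.46% higher of all Ensembl lncRNA genes. Ftx had 37, 9 and 6 reads, with ratios of 0.261 (0.111 to 0.551) in G1 and 0.179 (0.0616 to 0.427) in G2. The 10 overlapping rows held more reads than these, and with them the locus of Ftx had 172, 80 and 76 reads and ratios of 0.499 and 0.487. For 4933407K13Rik, with 57, 20 and 8 reads, the 3 ratios were 0.377, 0.155 and 0.411, which overlapping rows moved to 0.487, 0.409 and 0.840, so that G3 was no longer past 2-fold. Jpx had 38, 36 and 44 reads, and all its intervals included no change. Mir99ahg, host of the miR-99a and let-7c cluster, fell from 279 to 157 and 80 reads, a ratio of 0.316 (0.243 to 0.406) in G2, where its log2 ratio of -1.66 became -1.04 with overlapping rows added, while the ratio in G3 went from 0.523 to 1.08. Dleu2, host of miR-15a and miR-16, had 205, 126 and 96 reads and Mir22hg 92, 48 and 41, with log2 ratios of -0.95 and -1.03 in G2, the latter -0.78 with median-of-ratios factors. Of 18 listed miRNA hosts, 6 had an Ensembl row and 4 had 20 or more reads, of which 2 were past 2-fold lower and none higher in G2, beside 42.7% and 5.46% of all Ensembl lncRNA genes, while Pvt1 was lower in G1 and higher in G3. In the imprinted list, Peg13 alone reached 20 reads, with 133, 78 and 54.

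Lists of inflammation and of conserved regulators had few rows. Of 12 inflammation and myeloid lncRNAs 4 had 20 or more reads, and none was higher in any comparison, while 1 was lower in G1, 2 in G2 and 2 in G3. Over all Ensembl lncRNA genes 26.2%, 42.7% and 30.6% were lower, and 15.6%, 5.46% and 8.81% higher. Of 23 conserved regulators 4 had 20 or more reads, of which 1 was lower in G2. AI662270, a processed transcript gene, had 292, 174 and 142 reads, a log2 ratio of -0.90 (-1.20 to -0.61) in G2. F630028O10Rik had 25, 8 and 1 reads. Ptgs2os2, named for its place opposite the prostaglandin synthase gene Ptgs2, had 10, 13 and 0 reads. With 0 taken as 3 reads, mOC-ABs were 4.22-fold lower than pOC-ABs, and the interval of the ratio in G3 reached up to 0.337. Dubr had 474, 405 and 222 reads (log2 ratio -0.95 in G2, interval -1.19 to -0.72), and Crnde had 29, 15 and 10. No telomerase RNA row was among the Ensembl rows. Of 23 osteoclast genes, 1 had an Ensembl lncRNA gene within 5000 bases, and of 20 macrophage genes none. Gm10463, 2630 bases from the osteoclast transcription factor gene Fosl2, had 9, 12 and 4 reads with intervals that included no change in all 3 comparisons, while Fosl2 rose from 1589 to 2757 and 8427.

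Of 11 listed lncRNAs that the study names, 6 had an Ensembl row and 4 had 20 or more reads. The study places Ftx and B230354K17Rik in pOC-ABs and Gm11613 in mOC-ABs, and reports qPCR of each in those ABs. The study chose that list on these samples, so it is not independent of them, and none was higher and 2 lower in G1, beside 15.6% and 26.2% of all Ensembl lncRNA genes. In G2, 2 were higher and 1 lower, beside 5.46% and 42.7%, and in G3, 2 were higher, beside 8.81%. Gm11613 had 74, 6 and 137 reads. pOC-ABs were the lowest library, with ratios of 0.0870 (0.0309 to 0.199) in G1, 2.04 (1.53 to 2.74) in G2 and 23.4 (10.5 to 65.0) in G3. With the 4 overlapping NONCODE or assembled rows added, its log2 ratios were -0.60, -0.15 and 0.45. B230354K17Rik had 146, 70 and 117 reads, with a ratio of 0.515 (0.381 to 0.689) in G1. With its 1 overlapping row it had 153, 117 and 118 reads and a ratio of 0.821, and the ratio in G3 went from 1.72 to 1.04. Gm43597 had 5, 6 and 13 reads, and all its intervals included no change. Its ratio in G3 went from 2.22 to 1.54 with the overlapping row. The remaining gene was Ftx, described above, with a ratio of 0.261 in G1. By their Ensembl rows, Ftx and B230354K17Rik were thus lower in pOC-ABs than in BMM-ABs. Gm11613 was highest in mOC-ABs by its Ensembl row, but not with the overlapping rows added.

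The genes that stood highest in 1 library mostly had low counts. In mOC-ABs they were led by A330074K22Rik, a lincRNA of 3 exons at chr8:120204434-120228230, with 0, 0 and 107 reads. With 0 taken as 3 reads in a library, it was 39.3-fold higher than in BMM-ABs and 36.6-fold higher than in pOC-ABs. The intervals of its ratios began at 31.4 in G2 and 29.3 in G3. In pOC-ABs, Rab11fip4os1, antisense to Rab11fip4, had 0, 79 and 0 reads. Counted the same way, it was 28.3-fold higher than in BMM-ABs and 25.6-fold higher than in mOC-ABs. Its interval began at 22.5 in G1 and ended at 0.0491 in G3. Foxd2os, also highest in pOC-ABs, had 1, 35 and 0 reads and a ratio of 37.6 (6.31 to 1526) in G1. In BMM-ABs, 9330175E14Rik had 38, 1 and 0 reads and D930016D06Rik 30, 2 and 0. With 0 taken as 3 reads, they were 11.5-fold and 9.08-fold higher than in mOC-ABs, and their intervals in G2 ended at 0.112 and 0.144. Gm14236, antisense to Ripor3, had 0, 2 and 24 reads. Each of these rows was at or near 0 in the other libraries.

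Most of these loci were also covered by rows of other sources, and these often held reads where the Ensembl row had none. At A330074K22Rik the other 2 rows had 34, 90 and 37 reads, so that the locus had 34, 90 and 144 in all. At Rab11fip4os1 the 1 other row had 20, 0 and 13 reads, the reverse of 0, 79 and 0, and the sum was 20, 79 and 13. Foxd2os came to 81, 72 and 20, 9330175E14Rik to 58, 47 and 25, and D930016D06Rik to 58, 31 and 20. Of the 24 genes ranked highest in 1 library, 15 overlapped other rows, and 4 of these 15 remained more than 2-fold above both other libraries after summing. Those 4 were Gm13391, Rab11fip4os1, Gm16576 and Neat1. The 9 genes without other rows, among them Gm14236 and the TEC genes C530043K16Rik and Gm48574, kept their values by construction. One of the 9, 4930513N10Rik, had 6, 4 and 31 reads, and rows of the same gene in the mRNA table had 19, 25 and 6. With these added, its fold over the next library fell from 5.69 to 1.31. Rows at 0 were few among those with 20 or more reads, with 21, 26 and 45 of the 1319, and 20, 23 and 35 of them had 2 or more exons.

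**Figure D5:**
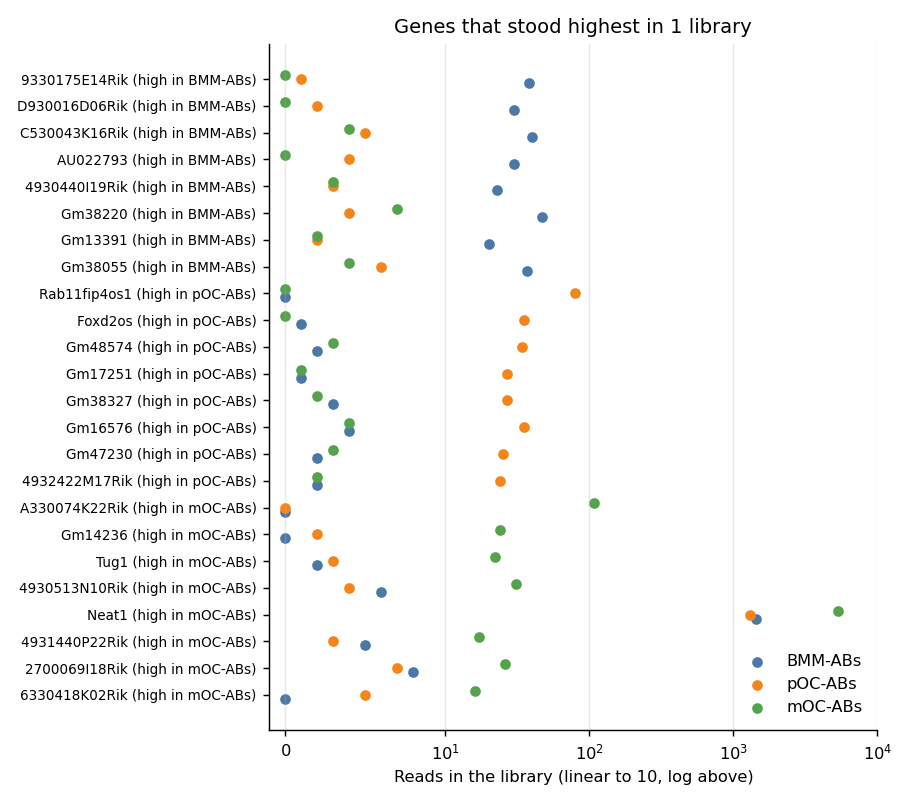
Reads in each library (linear to 10, log above) of the 8 genes ranked highest in each library by the smaller of the 2 folds, with counts under 3 taken as 3 reads for the ranking. A330074K22Rik has 107 reads only in mOC-ABs and Rab11fip4os1 79 only in pOC-ABs, whereas Neat1, with 5290, is the only gene shown above 200 reads.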

How the data were processed

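ABs of 3 cell stages were sequenced, 1 library per stage, from poly-T purified RNA with paired-end reads. Per the labels, FastQC, HISAT2 and StringTie with the mouse build GRCm38 were used, without a stated role or version. The counting tool is not given in the sources used here. The authors deposited read counts and FPKM per transcript in separate lncRNA and mRNA tables, and the lncRNA FPKM values scale to the reads of both tables. The deposited circRNA table holds junction read counts and SRPBM, a depth-scaled score, of which only the counts were used.

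Rows were taken by their ENSMUST identifiers, matched to GENCODE M21 and summed per gene. Overlapping NONCODE and assembled rows were found by the span of the gene alone, without regard to strand or exons. Ratios are of reads divided by the total of both tables, from 11556957 to 12734764 reads per library. Clopper-Pearson intervals at 95% cover counting error only, since reads without molecular identifiers are not independent molecules. A ratio past 2-fold was called among rows or genes with 20 or more reads over the 3 libraries. Counts under 3 reads were set to 3 for bounds and for the ranking of genes highest in 1 library. No test between conditions was possible with 1 library per group. Among genes with 20 or more reads, those named were the genes of the lists, the 10 genes with the most reads per library, the 8 genes highest in each library against both others, the 8 genes with the largest shifts between rows, and genes within 5000 bases of osteoclast or macrophage genes. Loci within host genes and structured RNAs beyond these were named after their values were seen. The set of rows and the lists were chosen with earlier results of these data known. Sequences are those of GENCODE M21 transcripts, and hexamers were searched on the transcript strand only. The sequence of 7SL RNA is not reported here. The ratio and call functions were tested on simulated data. Alternatives were median-of-ratios and TMM factors, other totals, minimum reads, a pseudocount of 5 reads, interval-based calls, the deposited FPKM, and adding overlapping rows. Python 3.11.15, pandas 2.3.3, numpy 2.4.6, scipy 1.17.1, Biopython 1.88, matplotlib 3.10.9, R 4.3.3 and edgeR 4.0.16 were used, edgeR for TMM factors only.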

Additional observations from a re-analysis of the deposited data

How the results depend on the processing

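No paired analysis was possible because the labels give no replicate numbers and each group has 1 library, and for the same reason no library could be left out. Counts are given as higher and lower. Of 12 counts of transcripts or genes past 2-fold, 12 lay within 1.5 times their value with median-of-ratios factors, 12 with totals without 7SL, RNase MRP and RNase P RNAs, and 10 with TMM factors, where 142 transcripts and 109 genes were higher in G2. The deposited FPKM, overlapping rows and rows of the mRNA table kept 6 of 6 counts each within that range. Without a minimum of reads, in the order G1, G2, G3, transcripts numbered 727 and 943, 428 and 1340, and 571 and 1068, and genes 592 and 799, 314 and 1186, and 439 and 942. With a minimum of 50 reads, transcripts numbered 90 and 136, 36 and 213, and 43 and 138. With the interval past 2-fold, transcripts numbered 69 and 73, 30 and 126, and 31 and 114, and genes 50 and 52, 18 and 109, and 14 and 95. A pseudocount of 5 reads left 58 transcripts higher in G2 and 70 in G3, and an interval beyond no change left 78 higher in G3.

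Adding overlapping NONCODE and assembled rows reversed log2 ratios of 4931440P22Rik (-0.42 in G2, -0.83 in G3), 4932422M17Rik (-1.33 in G1, 0.21 in G3), Epb41l4aos (-1.21 in G1, 0.04 in G3), Firre (-0.30 in G2), Foxd2os (-0.07 in G1), Gm11613 (-0.15 in G2), Pvt1 (-0.60 in G3), Snhg20 (0.21 in G2) and Tug1 (-1.54 in G2, -0.50 in G3). It moved a further 18 of 74, 12 of 69 and 13 of 71 log2 ratios of named genes in G1, G2 and G3 out of their intervals, such as that of 9330175E14Rik in G1 (-5.15 to -0.20). The overlapping rows were taken by span alone, so that these shifts need not lie in the RNA of the gene itself. Of the named genes with such rows, 21, 27 and 22 were past 2-fold in the 3 comparisons. With the rows added, 12, 9 and 14 named genes were counted as no longer so. The 12 and the 9 include Gm14236, which has no such rows and was counted only because 0 reads in BMM-ABs gave no finite ratio. Adding the rows of the mRNA table, an alternative chosen after seeing the data, reversed Firre (-1.35 in G2) and Tug1 (-0.13 in G2), and moved 4, 3 and 3 others out of their intervals, among them 4930513N10Rik in G2 (2.51 to 0.71). The causes were not tested. Rows of few reads limit most single values, as 1797 of 3116 had under 20.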
